A study of Mus musculus with 24 samples.

Results

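The genes described here are 10 genes of the cytotoxic granule, taken by symbol from the table of normalized counts. They are the granzymes *Gzma*, *Gzmb*, *Gzmc*, *Gzmk* and *Gzmm*, the pore former *Prf1*, the granule membrane protein *Nkg7*, the serpins *Serpinb9* and *Serpinb6b* and the protease *Ctsw*. All 10 were among the 17464 genes listed, and all 10 passed the filter on low values. They were read in spleen regulatory T (Treg) cells of wild-type C57BL/6JRccHsd mice, for which the labels name no transgene or treatment. The study used mice of both sexes. Cells were sorted as resting Treg cells (rTreg, CD62L+ CD44-), activated Treg cells (aTreg, CD62L- CD44+) or KLRG1+ Treg cells (kTreg). Each subset was taken from 4 mice aged 2 months (young) and 4 aged 26 months (old). The 3 subsets of an animal bear its replicate number, which gave 24 libraries in 6 groups of 4. The comparisons ask how the subsets differ in these genes at each age, and how each subset differs between ages.

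Cytotoxic granules are the secretory lysosomes with which NK cells and cytotoxic T cells kill a target. Perforin opens the target's membrane, granzymes enter and cut proteins there, and the killer cell keeps serpins in its cytosol that bind granzymes which leak from its own granules. Treg cells are known to use granzyme B, with or without perforin, to kill or restrain other lymphocytes.

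The normalized counts are reads per gene divided by 1 factor per library, and between 15045747 and 29521942 reads lay on listed genes in a library. *Klrg1*, the gene of the sorting marker, lay between 16559 and 41561 in kTreg libraries and did not exceed 357 elsewhere, and *Foxp3*, which encodes the transcription factor that defines Treg cells, was present in every library. In old aTreg replicate 2 *Foxp3* was 5079, against 17635 as the median of that group. Its mean was 23685 in young aTreg and 30760 in young kTreg cells, and 15041 and 34778 in old ones. The sum of 7 Treg markers was 72164 to 74326 in young aTreg and 97327 to 102248 in young kTreg libraries. In old ones it was 25309 to 58827 and 84114 to 96345. Over 24 libraries this sum correlated with *Gzma*, *Gzmb*, *Gzmc* and *Ctsw* at r = 0.39, 0.77, 0.62 and -0.72, and its part in their differences was not tested. Young kTreg replicate 4 listed 458 of the 9899 genes that reached 100 in each of the other 3 young kTreg libraries at 0, among them *Prf1*. *Gzmk* and *Gzmm*, which did not reach 100 there, were also at 0 in that library. No other library had more than 35 such genes. Markers of other cells were present as well. The summed level of 5 macrophage or monocyte markers, which include *Lyz2*, was 10076 to 26208 in old rTreg libraries, 226 to 324 in old aTreg libraries and 1912 to 2805 in old kTreg libraries. Among young libraries it was highest in replicate 2 of each subset, at 8060 in rTreg, 2816 in aTreg and 19727 in kTreg cells. These libraries also had the highest sums of 5 B cell markers, at 15202, 8260 and 6664, against at most 2064 in any other young library.

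On the scale of counts per kb of exon, which allows genes to be compared with each other, *Nkg7* and *Ctsw* were the most abundant of the 10 genes in every group apart from young kTreg cells. There *Gzmb* led with 4155 ± 1030.0 per kb (SD, n = 4), against 2355 ± 758 for *Nkg7* and 818 ± 231 for *Ctsw*. *Gzmm* was among the scarcest, at 22.1 to 46.6 per kb as group means. In the plot of the genes by library, the granzymes spread over several log2 units between groups and *Serpinb6b* over less than 1 unit.

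**Figure D1:**
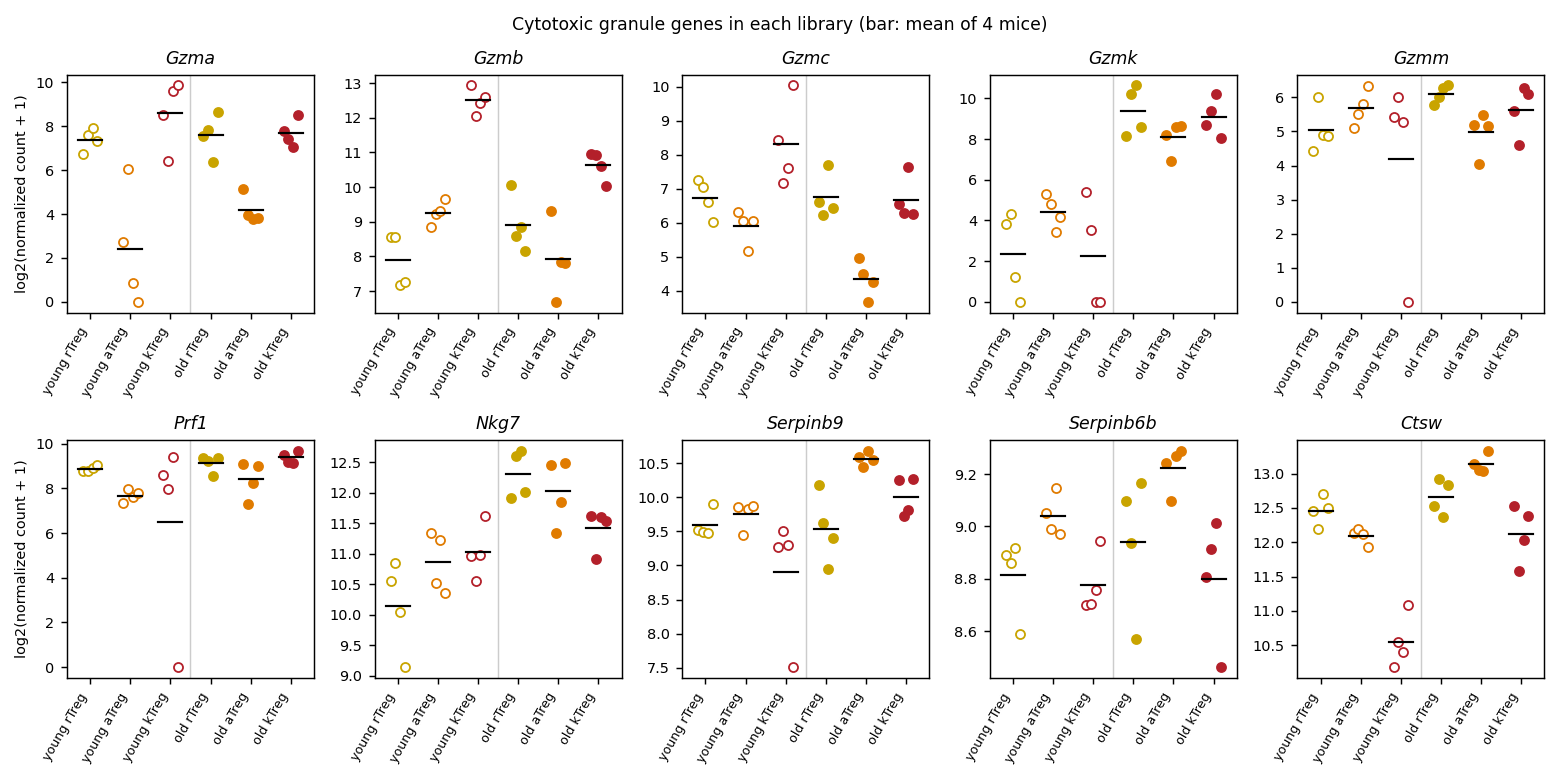
Each panel gives 1 gene, with log2(normalized count + 1) on the vertical axis and the 6 groups on the horizontal axis. Open points are libraries of young mice, filled points those of old mice, and the bar is the mean of 4. *Gzmb* was highest in young kTreg cells, *Gzmk* was high in every old group, and young kTreg replicate 4 lay at 0 for *Gzmk*, *Gzmm* and *Prf1*.

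Between kTreg and aTreg cells, 3 granzymes rose and 2 other genes fell. *Gzma*, *Gzmb* and *Gzmc* were higher in kTreg cells in 8 of 8 mice, while *Ctsw* was lower in 8 of 8 and *Serpinb9* in 7 of 8. A gene is called here if its adjusted p (Benjamini-Hochberg, limma over 16630 genes) lies under 0.05 and its change is larger than 1.5-fold. These 5 of 10 genes were called, where 7.39% of all genes tested were (4.13% higher and 3.26% lower). The median log2 difference of the 10 genes was -0.28, and that of all genes was -0.08. In bulk RNA, fewer cells that express a gene and less RNA per cell cannot be told apart.

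*Gzmb* encodes granzyme B, a serine protease that cuts after aspartate and activates caspases. In young mice its normalized count was 7816, 4275, 5519 and 6255 in kTreg libraries, 463, 595, 638 and 799 in aTreg libraries and 377, 378, 142 and 154 in rTreg libraries. In old mice it was 1978, 1948, 1546 and 1055 in kTreg libraries, 637, 102, 227 and 224 in aTreg libraries and 1057, 385, 457 and 284 in rTreg libraries. At each age the kTreg libraries lay above every aTreg library. In old mice kTreg and rTreg libraries overlapped, with the lowest kTreg library at 1055 and the highest rTreg library at 1057. Over both ages *Gzmb* was 7.90-fold higher in kTreg than in aTreg cells (log2 difference 2.98 ± 0.32 SE, adjusted p = 2.2e-06, limma) and 8.998-fold higher than in rTreg cells (3.17 ± 0.32, adjusted p = 1.9e-07, limma). aTreg and rTreg cells differed by 0.19 ± 0.32 (adjusted p = 0.82, limma), a mean over mice that went in opposite directions. In young mice aTreg cells had more *Gzmb* than rTreg cells in 4 of 4 animals (mean log2 difference 1.37 ± 1.05 SD), and in old mice they had less in 4 of 4 (-0.995 ± 0.66 SD).

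*Gzma* encodes granzyme A, a tryptase that cleaves substrates without activating caspases. In young mice kTreg libraries held 370.1, 84.1, 787 and 933, aTreg libraries 5.57, 66.1, 0.80 and 0, and rTreg libraries 105, 192, 239.9 and 159.6. In old mice the values were 222, 171, 134 and 365 in kTreg libraries, 34.5, 14.5, 12.6 and 13.0 in aTreg libraries and 185, 225, 81.9 and 405 in rTreg libraries. aTreg cells stood apart as the low subset, with no overlap with the other subsets at either age, whereas kTreg and rTreg libraries overlapped. On the log2(value + 1) scale kTreg exceeded aTreg cells by 4.87 ± 0.65 (29.2-fold, adjusted p = 3.4e-05, limma), and aTreg cells fell below rTreg cells by 4.21 ± 0.65 (18.4-fold lower, adjusted p = 0.00016, limma). With aTreg values this near 0 the size depends on the model, and edgeR gave 4.22 and -3.41 for these comparisons (adjusted p = 0.00035 and 0.0019). kTreg and rTreg cells differed by 0.66 ± 0.65 (adjusted p = 0.50, limma), with the higher value in kTreg cells in 5 of 8 mice. Within young mice the difference between kTreg and aTreg cells ranged from 0.34 in replicate 2 to 9.87, so its size varied widely from mouse to mouse. Both libraries of replicate 2 had the highest macrophage and B cell marker sums of their groups, whose part in this was not tested.

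Markers of NK cells, which carry much granzyme A, were read beside *Gzma* as a sum and singly. The list of 9 NK cell markers, all of them listed, summed to 299.99 to 1805 in young rTreg, 412 to 958 in young aTreg and 451 to 3145 in young kTreg libraries, and to 2206 to 7233 in old rTreg, 519 to 1780 in old aTreg and 483 to 970 in old kTreg libraries. The aTreg sums overlapped the kTreg sums at both ages, and their median was the higher in old mice (1081 against 594) and the lower in young mice (595 against 737). In old aTreg libraries 1 of the 9, *Klra4*, was at 0 throughout. It averaged 32.0, 1.48 and 18.1 in young and 43.4, 0 and 11.3 in old rTreg, aTreg and kTreg cells. In old mice *Klrb1c* averaged 411, 874 and 245 in these subsets and *Klrc2* 55.8, 115 and 27.6, both highest in aTreg cells. Single markers differed more than the sum. *Tyrobp*, the signalling adaptor of NK and myeloid receptors, averaged 2116 in old rTreg, 13.8 in old aTreg and 170 in old kTreg cells, and *Ncr1*, which encodes the NK receptor NKp46, 339, 8.74 and 65.0. Between kTreg and aTreg cells *Tyrobp* rose by 2.39 ± 0.60 (adjusted p = 0.010, limma) and *Ncr1* by 2.24 ± 0.57 (adjusted p = 0.012, limma), while the NK marker *Klrb1c* fell by 1.39 ± 0.34 (adjusted p = 0.0089, limma). Over the 24 libraries, which share mice, subsets and ages, *Gzma* correlated with the NK marker sum at r = 0.17 and with the macrophage marker sum at 0.28. A few genes made most of the NK marker sum. These were *Tyrobp* and *Fcgr3* in old rTreg cells (means 2116 and 731) and *Klrb1c* in old aTreg cells (874). The sum is therefore no measure of NK cells alone. Young kTreg replicate 2 had the highest NK marker sum of the young mice, at 3145, and the lowest *Gzma* of its group. Its *Tyrobp* was 1451 and its macrophage marker sum 19727. Old rTreg replicate 3 also joined the highest sum of its group, 7233, to the lowest *Gzma*, 81.9. The highest sum came with the highest *Gzma* in young aTreg replicate 2 (958 and 66.1), old aTreg replicate 1 (1780 and 34.5) and old kTreg replicate 4 (970 and 365). Young rTreg replicate 2 had the highest sum, 1805, and a middle *Gzma*, 192. In young kTreg replicates 1 to 4 *Ncr1* was 61.5, 109, 127 and 239 and *Klrb1c* 161, 90.8, 173 and 447. *Gzma* was 370, 84.1, 787 and 933 there. *Cd8a* and *Cd8b1* summed to 77.8 to 777 in young kTreg and 339 to 1115 in young aTreg libraries, and to 311 to 487 in old kTreg and 171 to 268 in old aTreg libraries. The part of RNA from other cells in the granzyme values was not tested.

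**Figure D2:**
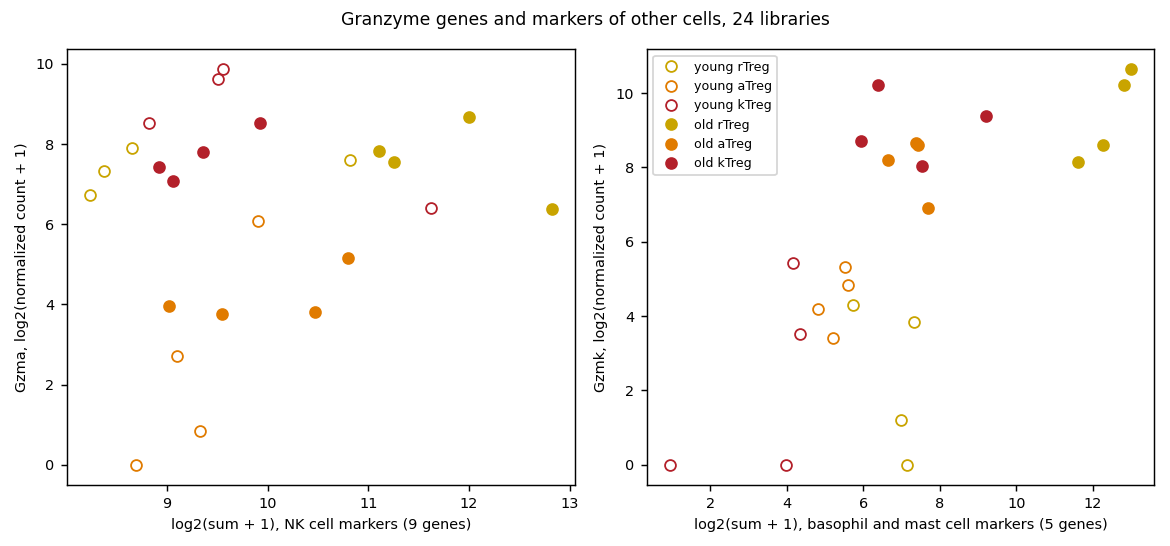
The left panel plots log2(normalized count + 1) of *Gzma* against log2(sum + 1) of 9 NK cell markers, and the right panel *Gzmk* against 5 basophil and mast cell markers, with 1 point per library (open young, filled old). aTreg libraries lay low in *Gzma* at NK marker sums that kTreg libraries also had. In old aTreg libraries most of that sum was *Klrb1c*, which averaged 874 there and 245 in old kTreg cells. *Ncr1* and *Tyrobp* averaged 8.74 and 13.8 in old aTreg against 65.0 and 170 in old kTreg cells. Old rTreg libraries stood apart on the right in the right panel, while in the left panel young kTreg replicate 2, at a sum of 3145, lay among them.

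*Gzmc* encodes granzyme C, a rodent granzyme whose gene lies 17.1 kb from *Gzmb* on chromosome 14. Its values in young mice were 347, 144, 194 and 1051 in kTreg, 79.1, 65.3, 35.4 and 65.0 in aTreg and 153, 131, 97.6 and 64.2 in rTreg libraries. In old mice they were 92.2, 76.6, 199 and 76.1 in kTreg, 29.98, 21.7, 11.8 and 18.2 in aTreg and 97.1, 73.9, 208 and 86.1 in rTreg libraries. As with *Gzma*, aTreg cells were low, and in old mice kTreg and rTreg cells of the same animal differed by between -0.18 and 0.05 log2 units. *Gzmc* was 5.19-fold higher in kTreg than in aTreg cells (2.37 ± 0.37, adjusted p = 0.00017, limma) and fell by 1.62 ± 0.37 from rTreg to aTreg cells (adjusted p = 0.0052, limma). kTreg and rTreg cells differed by 0.76 ± 0.37 (adjusted p = 0.15, limma). Much of the young kTreg mean, 434 ± 420.3, came from replicate 4. Without that library kTreg exceeded aTreg cells by 2.09 ± 0.31 (adjusted p = 7.5e-05, limma).

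The 250 bases before the annotated start of 4 genes are shown because *Gzma*, *Gzmb* and *Gzmc* were high in kTreg cells and *Ctsw* was low. They were read from GRCm39 on the gene's strand, 5′ to 3′, at chr13:113237525-113237774 (*Gzma*, minus strand), chr14:56499718-56499967 (*Gzmb*, minus), chr14:56472114-56472363 (*Gzmc*, minus) and chr19:5518536-5518785 (*Ctsw*, minus). Capitals mark matches, on either strand, to 6 short motifs chosen after the values were known.
Gzma: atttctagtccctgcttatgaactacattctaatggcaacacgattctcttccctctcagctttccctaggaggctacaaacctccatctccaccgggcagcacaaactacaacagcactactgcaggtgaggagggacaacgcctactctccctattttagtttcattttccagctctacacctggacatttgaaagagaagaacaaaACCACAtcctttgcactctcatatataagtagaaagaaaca
Gzmb: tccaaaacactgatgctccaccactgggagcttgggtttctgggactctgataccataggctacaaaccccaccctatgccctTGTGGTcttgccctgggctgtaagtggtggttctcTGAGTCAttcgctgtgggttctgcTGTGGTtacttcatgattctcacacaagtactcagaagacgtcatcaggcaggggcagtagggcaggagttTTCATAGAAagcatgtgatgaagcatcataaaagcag
Gzmc: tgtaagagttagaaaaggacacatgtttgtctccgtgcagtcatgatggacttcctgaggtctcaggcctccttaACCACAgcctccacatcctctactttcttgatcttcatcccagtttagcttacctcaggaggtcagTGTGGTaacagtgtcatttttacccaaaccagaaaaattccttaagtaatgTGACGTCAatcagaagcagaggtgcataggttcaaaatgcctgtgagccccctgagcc
Ctsw: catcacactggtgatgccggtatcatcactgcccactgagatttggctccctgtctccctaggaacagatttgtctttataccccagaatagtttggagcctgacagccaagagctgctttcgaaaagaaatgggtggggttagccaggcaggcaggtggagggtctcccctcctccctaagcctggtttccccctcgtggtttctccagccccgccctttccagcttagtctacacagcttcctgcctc

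In the *Gzmb* window an AP-1 motif (TGANTCA) lay 132 to 126 bases before the start, RUNX motifs (TGTGGT) lay at 167 to 162 and 108 to 103, and a STAT motif (TTCNNNGAA) lay at 37 to 29. The *Gzmc* window held a CRE (TGACGTCA) at 58 to 51 bases and RUNX motifs at 175 to 170 and 109 to 104, and the *Gzma* window 1 RUNX motif at 41 to 36. No match overlapped another. None of the 6 motifs was found in the *Ctsw* window, and neither the letters AGATAA, as bound by GATA factors, nor the T-box letters AGGTGTGA were found in any of the 10. Of 12919 windows of the same length, each before the start of a gene and these 10 included, 12.3% held the RUNX motif, as did 6 of the 10. The shares were 4.56% for AP-1 (1 of the 10), 2% for CRE (1), 6.73% for STAT (3), 7.38% for GATA (0) and 0.735% for T-box (0). A match describes the letters and is no measure of binding.

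*Gzmk* and *Gzmm* encode a tryptase and a protease that cuts after methionine or leucine. Neither was called between subsets. *Gzmm* lay between 0 and 80.8 over all 24 libraries, so at most 110 reads stood behind a value. *Gzmk* differed between kTreg and aTreg cells by -0.61 ± 0.75 (adjusted p = 0.66, limma), with 4 of 8 mice in each direction. Its difference between ages is given further on.

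*Prf1* encodes perforin, which granzymes need to reach the cytosol of most targets. In young mice it was 392, 251, 668 and 0 in kTreg, 164, 247, 194 and 218 in aTreg and 444, 438, 479.9 and 533 in rTreg libraries. In old mice it was 728, 583, 567 and 824 in kTreg, 551, 156, 305 and 508 in aTreg and 651, 596, 371 and 658 in rTreg libraries. Apart from the library at 0, each kTreg library exceeded the aTreg library of its mouse, which made 7 of 8 mice, and all 8 mice had less *Prf1* in aTreg than in rTreg cells. With all libraries the differences were -0.10 ± 0.84 for kTreg against aTreg (adjusted p = 0.96, limma) and -0.96 ± 0.84 for aTreg against rTreg cells (adjusted p = 0.58, limma). Without young kTreg replicate 4, *Prf1* was higher in kTreg than in aTreg cells by 0.98 ± 0.23 (adjusted p = 0.0060, limma) and lower in aTreg than in rTreg cells by 0.96 ± 0.23 (log2 difference -0.96, adjusted p = 0.0047, limma). kTreg and rTreg cells then differed by 0.02 ± 0.23 (adjusted p = 0.96, limma).

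*Nkg7* encodes a membrane protein of cytotoxic granules that takes part in their release. Over both ages it spanned 562 to 6617 in rTreg, 1304 to 5729 in aTreg and 1502 to 3147 in kTreg libraries, so the subsets overlapped. It differed by -0.22 ± 0.24 between kTreg and aTreg cells (adjusted p = 0.60, limma) and by 0.22 ± 0.24 between aTreg and rTreg cells (adjusted p = 0.68, limma). Cells of each subset carried *Nkg7* at a level per kb above every granzyme except *Gzmb* in young kTreg cells.

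*Ctsw*, the gene of cathepsin W, a cysteine protease found mainly in NK and cytotoxic T cells, went the other way from *Gzmb*. Its young values were 1161, 1489.8, 1357 and 2165 in kTreg, 4474, 4689.9, 4455 and 3887 in aTreg and 5585, 4664, 6667 and 5791 in rTreg libraries. Its old values were 5906, 3055, 4168 and 5321 in kTreg, 9019, 8517, 8415 and 10313 in aTreg and 5877, 7764, 5308 and 7261 in rTreg libraries. kTreg and aTreg libraries did not overlap at either age. *Ctsw* was 2.42-fold lower in kTreg than in aTreg cells (-1.28 ± 0.13, adjusted p = 1.6e-06, limma) and 2.33-fold lower than in rTreg cells (-1.22 ± 0.13, adjusted p = 5.7e-07, limma). The gene overlaps *Fibp* on the opposite strand, and the strand setting of the counts was not given in the sources used here. *Fibp* differed between kTreg and aTreg cells by 0.14 ± 0.12 (adjusted p = 0.48, limma). Over the 24 libraries the log2 values of *Ctsw* and *Gzmb* correlated at r = -0.85, a description of libraries that share subsets and mice.

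The granule inhibitors among the 10 genes are serpins. *Serpinb9* encodes the mouse inhibitor of granzyme B known as SPI6. In young mice it was 619, 726, 631 and 181 in kTreg, 926, 697, 903 and 933 in aTreg and 729, 719, 712 and 959 in rTreg libraries, and in old mice 1216, 842, 897 and 1226 in kTreg, 1532, 1395, 1642 and 1494 in aTreg and 1154, 788, 494 and 679 in rTreg libraries. kTreg libraries lay below all aTreg libraries in old mice, and in young mice replicate 2 was the exception. *Serpinb9* was 1.63-fold lower in kTreg than in aTreg cells (-0.70 ± 0.22, adjusted p = 0.039, limma). The call was lost with the mouse as a block (adjusted p = 0.055, limma), and without young kTreg replicate 4 the difference was -0.47 ± 0.14 (adjusted p = 0.025, limma), under the 1.5-fold limit. It was lost with only the compared groups (0.054) and with edgeR (0.058). It was also lost, with an adjusted p of 0.056 to 0.083, without young aTreg replicate 1, 3 or 4, any old aTreg library or old kTreg replicate 2 or 3, which made 10 of 24 single libraries. *Serpinb6b*, which encodes another intracellular serpin of cytotoxic cells, was lower in kTreg than in aTreg cells in 8 of 8 mice by a size under the fold limit (-0.34 ± 0.11, adjusted p = 0.037, limma). It lay between 352 and 625 in all 24 libraries. Both serpins have close paralogs on chromosome 13, as *Gzmb* and *Gzmc* have on chromosome 14, and how reads shared by such copies were counted was not given in the sources used here.

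**Figure D3:**
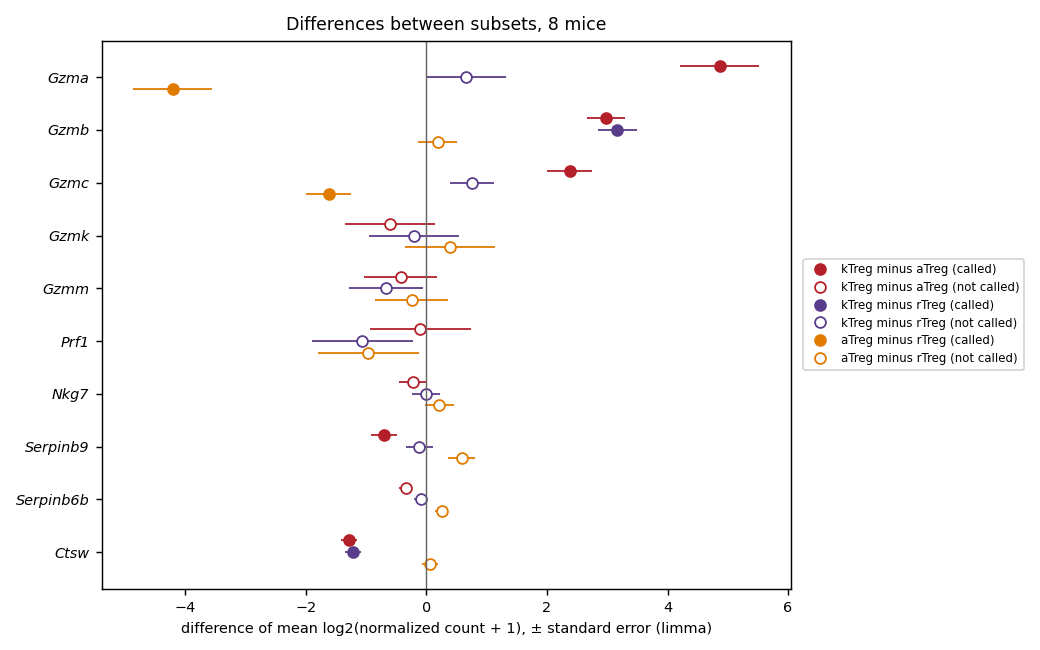
Points give the difference of mean log2(normalized count + 1) between subsets over both ages for each gene, with the standard error from limma (8 mice). Filled points were called. *Gzma* and *Gzmc* were low in aTreg cells against both other subsets, *Gzmb* was high and *Ctsw* low in kTreg cells against both.

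Against rTreg cells, 2 of 10 genes were called in kTreg cells, *Gzmb* higher and *Ctsw* lower, where 15.5% of all genes were called (9.37% higher and 6.09% lower). Between aTreg and rTreg cells 2 of 10 were called, *Gzma* and *Gzmc*, both lower in aTreg cells, where 8.01% of all genes were called (5.23% higher and 2.78% lower). These comparisons share their libraries with that of kTreg against aTreg cells. In each age taken alone, 4 of 10 genes were called between kTreg and aTreg cells, with 6.95% of all genes called in young mice (3.46% higher, 3.49% lower) and 2.2% in old mice (1.33% higher, 0.866% lower). At both ages *Gzma*, *Gzmb* and *Gzmc* were higher and *Ctsw* was lower. In young mice *Gzma* exceeded aTreg cells by 6.20 ± 0.92 (adjusted p = 0.00019, limma), or 4.90 with edgeR (adjusted p = 0.0038), *Gzmb* by 3.25 ± 0.45 (adjusted p = 8.7e-05, limma) and *Gzmc* by 2.42 ± 0.52 (adjusted p = 0.0047, limma). The young *Gzmc* call was lost with only the compared groups in the model (adjusted p = 0.074, limma). In old mice the differences were 3.54 ± 0.92 for *Gzma* (adjusted p = 0.043, limma), 2.72 ± 0.45 for *Gzmb* (adjusted p = 0.0020, limma) and 2.33 ± 0.52 for *Gzmc* (adjusted p = 0.020, limma). The old *Gzma* call was lost with the mouse as a block (adjusted p = 0.076, limma), with a pseudocount of 0.5 (0.065), with edgeR (0.055) and without both libraries that stood apart (0.084). It was lost as well in 16 of 24 fits without a single library, with an adjusted p of 0.064 to 0.16 when any old aTreg library was left out, of 0.090 to 0.12 when any old kTreg library was, and of at most 0.053 without young rTreg replicate 1, 3 or 4, young aTreg replicate 1, young kTreg replicate 1 or 3 or old rTreg replicate 1 or 2. The old *Gzmc* call was lost without old aTreg replicate 2 (adjusted p = 0.055, limma) or old kTreg replicate 3 (adjusted p = 0.095, limma).

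Whether the difference between kTreg and aTreg cells changed with age was tested directly. The interaction was called for 0 of 10 genes (limma, against 0.156% of all genes, 0.0421% higher and 0.114% lower), for 1 at an unadjusted p under 0.05, and for 0 with edgeR and 0 with DESeq2. For *Gzma* it was -2.66 ± 1.31 (adjusted p = 0.54, limma), for *Gzmb* -0.53 ± 0.64 (adjusted p = 0.77, limma) and for *Ctsw* 0.52 ± 0.27 (adjusted p = 0.55, limma). The difference between kTreg and rTreg cells, in contrast, changed with age for 3 of 10 genes, where 3.02% of all genes were called (0.998% higher and 2.03% lower). For *Gzmb* the advantage of kTreg over rTreg cells dropped by 2.90 ± 0.64 log2 units from young to old mice (interaction -2.90, adjusted p = 0.013, limma), from 4.62 ± 0.87 (SD over mice) to 1.72 ± 0.60. For *Ctsw* the deficit of kTreg cells shrank from -1.91 ± 0.44 to -0.53 ± 0.58 (interaction 1.37 ± 0.27, adjusted p = 0.0056, limma). For *Nkg7* the interaction was -1.77 ± 0.47 (adjusted p = 0.043, limma), a call lost with the mouse as a block (adjusted p = 0.064, limma), with only the compared groups (0.066) and with equal totals (0.051). It was lost too in 12 of 24 fits without a single library (adjusted p of 0.053 to 0.099), namely young rTreg replicate 3 or 4, young kTreg replicate 1, 3 or 4, old rTreg replicate 2 or 3, old aTreg replicate 3 or any old kTreg library. The old rTreg libraries in these interactions are those with the high macrophage and NK marker sums given above, whose part was not tested.

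Between ages, 2 of 10 genes were called in rTreg cells (5.83% of all genes, 4.12% higher and 1.71% lower), 1 in aTreg cells (2.71%, 1.85% and 0.86%) and 3 in kTreg cells (1.26%, 1.02% and 0.235%). *Gzmk* was the granzyme with the widest difference. In young mice it was 13.4, 18.8, 1.32 and 0 in rTreg, 39.0, 27.4, 9.65 and 17.3 in aTreg and 41.8, 10.5, 0 and 0 in kTreg libraries. In old mice it was 283, 1196, 1598 and 386 in rTreg, 293, 119.8, 390.3 and 405 in aTreg and 416, 671, 1185 and 263 in kTreg libraries. The lowest of the 12 old libraries, at 119.8, lay above the highest of the 12 young ones, at 41.8. *Gzmk* rose with age by 7.06 ± 1.05 in rTreg (adjusted p = 0.00021, limma) and by 6.85 ± 1.05 in kTreg cells (adjusted p = 0.0011, limma). In aTreg cells the difference was 3.66 ± 1.05 (adjusted p = 0.063, limma), and it passed without young kTreg replicate 4 (adjusted p = 0.026, limma). With so few reads in young libraries these sizes depend on the 1 added to each value. The adjusted p of *Gzmk* in kTreg cells was 0.074 with only the compared groups in the model.

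*Gzmk* lies on chromosome 13 and its annotated body, from 113308142 to 113362442, contains *Esm1* on the opposite strand. *Esm1*, which encodes a proteoglycan secreted by endothelial cells, averaged 1.94, 5.13 and 2.89 in young and 149.5, 69.98 and 103.6 in old rTreg, aTreg and kTreg cells. Of all genes tested it had the pattern most like that of *Gzmk* (r = 0.91 over 24 libraries), ahead of ENSMUSG00000079808 and *Madcam1*. It rose with age by 5.80 ± 0.78 in rTreg (adjusted p = 7e-05, limma), 3.76 ± 0.78 in aTreg (adjusted p = 0.0075, limma) and 5.32 ± 0.78 in kTreg cells (adjusted p = 0.00077, limma). The overlap was read from gene bodies, and whether exons of the 2 genes overlap was not checked. Since the strand setting is not known, reads could not be told apart where they do. *Gzma*, 70.6 kb from *Gzmk*, did not overlap another gene and differed between ages by 0.21 ± 0.92 in rTreg (adjusted p = 0.93, limma), 1.76 ± 0.92 in aTreg (adjusted p = 0.47, limma; 0.055 with edgeR) and -0.90 ± 0.92 in kTreg cells (adjusted p = 0.63, limma). Markers of basophils and mast cells moved with age too, with a sum of 52.1 to 159 in young and 3144 to 8230 in old rTreg libraries, 26.8 to 47.6 and 99.0 to 206 in aTreg, and 0.92 to 19.1 and 60.8 to 588 in kTreg libraries. Their part in the *Gzmk* values was not tested.

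*Nkg7* rose with age in rTreg cells, from 1498, 1851, 1056 and 562 in young to 3865, 6231, 6617 and 4154 in old libraries, without overlap (4.48-fold, 2.16 ± 0.34, adjusted p = 0.00030, limma). The NK marker sum was 299.99 to 1805 in these young and 2206 to 7233 in these old libraries, and over all 24 libraries *Nkg7* correlated with it at r = 0.63. Much of that sum in old rTreg cells was *Tyrobp* (mean 2116), the adaptor shared with myeloid receptors. The part of NK cells in the rise was not tested. In aTreg cells it went from 2605, 1464, 2381 and 1304 to 5626, 2599, 3696 and 5729, where 1 pair of values overlapped (1.18 ± 0.34, adjusted p = 0.059, limma). In kTreg cells the difference was 0.39 ± 0.34 (adjusted p = 0.56, limma). *Ctsw* rose with age in aTreg (2.07-fold, 1.05 ± 0.19, adjusted p = 0.0021, limma) and kTreg cells (2.98-fold, 1.57 ± 0.19, adjusted p = 0.00012, limma), in both without overlap between ages, and differed by 0.20 ± 0.19 in rTreg cells (adjusted p = 0.58, limma).

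*Gzmb* was the only 1 of the 10 genes that limma called lower in old cells. In kTreg cells it was 3.68-fold lower in old mice (-1.88 ± 0.45, adjusted p = 0.038, limma), and the old and young kTreg values did not overlap. The call was lost in 9 of 24 fits without a single library, which were young kTreg replicate 1, 3 or 4, any old kTreg library, young aTreg replicate 3 or old aTreg replicate 3, with an adjusted p of up to 0.15, while the log2 difference stayed between -2.03 and -1.68 when single libraries were left out. It was lost with edgeR as well (adjusted p = 0.054). In aTreg cells *Gzmb* differed by -1.35 ± 0.45 (adjusted p = 0.13, limma), which passed without old aTreg replicate 1 (-1.81, adjusted p = 0.025, limma), and in rTreg cells by 1.02 ± 0.45 (adjusted p = 0.19, limma). *Gzmc* differed by -1.63 ± 0.52 in kTreg and -1.55 ± 0.52 in aTreg cells (adjusted p = 0.13 for both, limma), and DESeq2 called the kTreg difference (-1.97, adjusted p = 0.012). *Serpinb9*, the granzyme B inhibitor, had values that did not overlap between ages in aTreg (0.82 ± 0.31, adjusted p = 0.21, limma) or kTreg cells (1.11 ± 0.31, adjusted p = 0.079, limma), and neither passed.

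**Figure D4:**
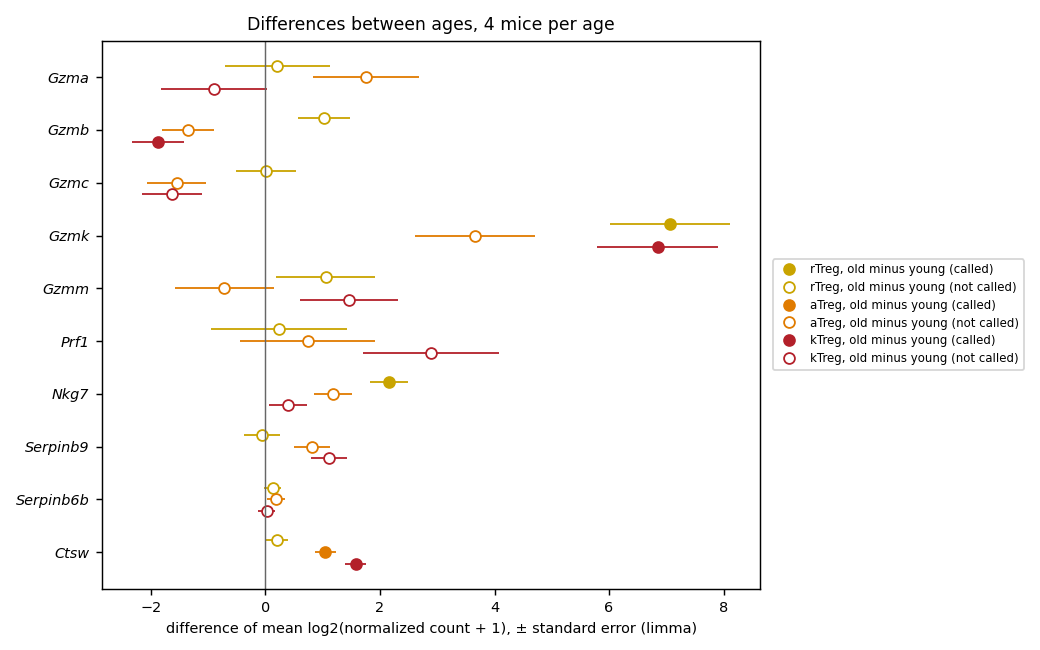
Points give old minus young mean log2(normalized count + 1) for each gene in rTreg, aTreg and kTreg cells, with the standard error from limma (4 mice per age). Filled points were called. *Gzmk* lay at 3.66 or more in each subset, and *Gzmb* lay at -1.88 in kTreg and 1.02 in rTreg cells.

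The granzymes were also summed to show their shares at each age. Summed per kb, the 5 granzymes reached 4924 ± 1325 in young kTreg and 1872 ± 419 in old kTreg cells, 553 ± 97.8 and 477 ± 217 in aTreg cells and 424 ± 123 and 1298 ± 372 in rTreg cells (SD, n = 4). *Gzmb* made up 85.3% ± 8.29 of the sum in young kTreg and 60.9% ± 10.3 in old kTreg cells. *Gzmk* made up 0.18% ± 0.24 and 23.0% ± 10.8. In old rTreg and aTreg cells *Gzmk* held the largest share, 44.2% ± 23.5 and 47.3% ± 14.0, and in young rTreg cells *Gzmb* (41.4% ± 11.5), *Gzma* (28.8% ± 13.2) and *Gzmc* (23.0% ± 3.55) shared most of it. The ratio of *Gzmb* to its inhibitor *Serpinb9*, per kb, had a median of 36.2 (range 19.9 to 117) in young kTreg and 5.67 (2.91 to 7.83) in old kTreg cells. The value of 117 came from young kTreg replicate 4, the library with many genes at 0, where *Serpinb9* was 181. The ratio was 2.64 (1.69 to 2.89) in young and 0.49 (0.25 to 1.41) in old aTreg cells, so kTreg cells had the higher ratio at each age with no overlap with aTreg cells. In rTreg cells it was 1.21 (0.54 to 1.78) in young and 2.38 (1.42 to 3.13) in old mice, where it overlapped the kTreg range. These shares and ratios are descriptions of the same values and were not tested.

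**Figure D5:**
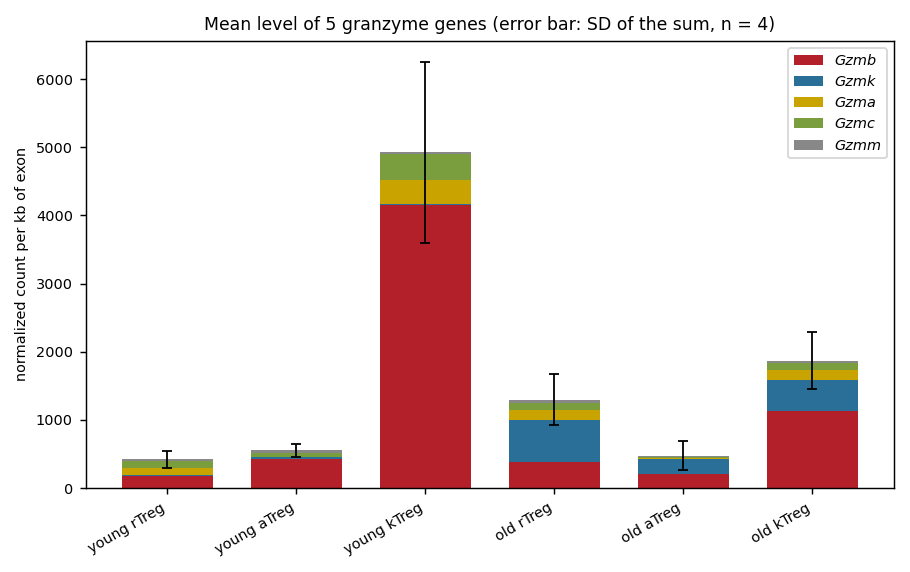
Stacked bars give the mean normalized count per kb of exon of 5 granzyme genes in each group, and the error bar is the SD of their sum (n = 4). The young kTreg bar reached 4924 per kb, most of it *Gzmb*, and *Gzmk* took a visible part of the bars of old mice.

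Other genes of the granule and of cytotoxic cells were read from lists of 52 genes, of which 38 were listed and tested. Between kTreg and aTreg cells 4 were called higher and 3 lower (4.13% and 3.26% of all genes). Among 9 granule proteases and matrix or processing genes, *Ctsh*, which encodes a cathepsin, rose by 5.10 ± 0.79 (adjusted p = 0.00016, limma), and none fell. It averaged 778 in young kTreg cells, and 525 in old kTreg against 11.6 in old aTreg cells. The young aTreg mean of 153 came from replicate 2, at 587, the aTreg library with the highest macrophage and B cell marker sums, and the other 3 averaged 7.88. None of the 7 listed genes of granule release, such as *Rab27a* and *Unc13d*, was called (median log2 difference 0.26). Of 5 further granzymes 1 was listed, *Gzmf*, at 0 to 70.5 over all libraries, and it was not called (2.37). *Serpinb1a*, which encodes an inhibitor of neutrophil-type serine proteases, fell by 1.64 ± 0.46 (adjusted p = 0.022, limma), a call lost without old aTreg replicate 2 (adjusted p = 0.058, limma) or old kTreg replicate 3 (adjusted p = 0.052, limma).

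Among 9 other effector molecules, *Tnfsf10*, the gene of TRAIL, rose by 0.90 ± 0.18 (adjusted p = 0.0016, limma) and the chemokine gene *Ccl5* by 1.04 ± 0.22 (adjusted p = 0.0028, limma) in kTreg against aTreg cells. *Tnf* fell by 0.70 ± 0.10 (adjusted p = 0.00012, limma) and the chemokine gene *Xcl1* by 2.25 ± 0.45 (adjusted p = 0.0019, limma). Of 10 transcription factors of cytotoxic lymphocytes 1 was called, *Prdm1*, the gene of BLIMP-1, which rose by 1.62 ± 0.26 (adjusted p = 0.00022, limma). Its group means were 3227 in young kTreg and 834 in young aTreg cells, and 2827 and 1234 in old ones. Over the same 38 genes 13 were higher and 3 lower in kTreg than in rTreg cells (9.37% and 6.09% of all genes), and 10 and 4 in aTreg than in rTreg cells (5.23% and 2.78%). With age 14 were higher and 0 lower in rTreg cells (4.12% and 1.71%), 5 and 0 in aTreg cells (1.85% and 0.86%) and 2 and 0 in kTreg cells (1.02% and 0.235%). The old rTreg libraries are those with the high macrophage, NK and basophil marker sums given above, whose part in the 14 was not tested.

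By likeness over the 24 libraries, *Ctla4*, *Fam234a* and *Havcr2* followed *Gzmb* most closely (r = 0.90 for each), and *Plec*, *Mgarp* and *Klra9* followed *Gzma* (0.86, 0.80 and 0.80). *Klra9*, of the same gene family as the NK marker *Klra4*, averaged 12.3, 0 and 75.6 in young rTreg, aTreg and kTreg cells. In old ones it averaged 43.8, 8.92 and 19.4. *Havcr2*, the gene of the checkpoint receptor TIM-3, averaged 1110 in young kTreg, 154 in young aTreg and 61.2 in young rTreg cells, and 357, 108 and 185 in old ones. Among the 10 genes themselves the highest correlations were those of *Gzmm* with *Prf1* (0.84), in which young kTreg replicate 4 is at 0 for both, and of *Gzmk* with *Nkg7* (0.73). *Gzmb* correlated with *Gzmc* at 0.67 and with *Gzma* at 0.39. The libraries behind these values share mice, subsets and ages, and the values are descriptions.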

How the data were processed

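RNA of 24 sorted Treg libraries (SMART-Seq v4, paired-end 150) was measured, and groups follow the sample titles. The submitters' processing notes name HISAT2 2.2.1, SAMtools 1.13, HTSeq 1.99.2, DESeq2 1.44.0 and GRCm39. The deposited signal has the steps of read counts divided by 1 factor per library, which were taken here to be the authors' size factors, and the table lists genes with at least 100 reads summed over the libraries. The annotation release, the strand setting and how multi-mapping reads were counted were not given in the sources used here. In every library 100% of values came out as whole reads (tolerance 0.001) once divided by what a single read is worth there (0.694 to 1.32), which recovered the reads. Symbols were taken from GENCODE for 17353 of 17464 identifiers.

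Log2(value + 1) was fitted with limma 3.58.1 (trend, R 4.3.3) over 6 groups, for the 16630 genes that reached 10 in 4 or more libraries. Alternatives were pseudocounts of 0.5 and 5, no filter, a minimum of 50, TMM or equal totals as scaling, only the groups compared, other call rules, edgeR 4.0.16 and DESeq2 1.42.0 on the recovered reads (1211 and 1511 genes called between kTreg and aTreg cells, against 1229 with limma), each library left out, and the libraries that stood apart (young kTreg replicate 4 and old aTreg replicate 2) left out together. The fit was tested on simulated data. Since the series description gives each mouse as the source of 3 subsets, the mouse was also used as a block. Deviations from group means correlated at a median of 0.15 (rTreg with aTreg), 0.091 (rTreg with kTreg) and 0.12 (aTreg with kTreg) within a mouse, against -0.033, -0.034 and -0.051 between mice.

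The 10 genes, the pathway lists and the cell type markers were chosen with earlier results of these data known, so no test of a list is given. Named were the 10 genes, from each list at most 4 genes called between kTreg and aTreg cells, and for 3 granzymes the 3 genes with the highest correlation. Any other gene named was chosen after its values were seen. Promoter windows of 250 bases were read from GRCm39 by GENCODE starts. Figures were drawn with matplotlib 3.10.9. Precision is limited by 4 mice per group and, for scarce genes, by counting error.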

Additional observations from a re-analysis of the deposited data

Results flagged for a closer look

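In 8 of 60 groups of 4 libraries, 1 library lay apart from the other 3 (Dixon's gap over the range above 0.829, on the log2 scale), where chance gives about 1 in 20. *Gzma* was highest in old aTreg replicate 1, at 34.5. *Gzmm* and *Prf1* were at 0 in young kTreg replicate 4, and *Serpinb9* was lowest there at 181. *Nkg7* was lowest in old kTreg replicate 2, at 1936. *Serpinb9* was also lowest in young aTreg replicate 2, at 697. In young rTreg replicate 4 *Serpinb9* was highest at 959 and *Serpinb6b* lowest at 384.

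The interaction of age with the difference between kTreg and rTreg cells was called for *Gzmb* (-2.90), *Nkg7* (-1.77) and *Ctsw* (1.37) among the 10 genes, and for *Ccl4* (-5.03) and *Tbx21* (-1.97) among the genes described beside them. The interaction with the difference between kTreg and aTreg cells was called for *Eomes* (5.98). These are log2 values of old minus young.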

How the results depend on the processing

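Of 26 called values of the 10 genes, 20 kept their call in all 13 alternatives that left no single library out, and 0 turned their direction in any alternative. Among the 13 are the main fit with no fold threshold and with an unadjusted p, in which no called value could lose its call. The cause was not tested for any change below. The mouse as a block ended the calls of *Serpinb9* between kTreg and aTreg cells (adjusted p = 0.055, limma), *Gzma* between them in old mice (0.076) and the *Nkg7* interaction (0.064), and changed no other call of the 10 genes. The number of the 10 genes called between aTreg and rTreg cells rose to 4 with only the compared groups and to 4 without both libraries that stood apart. Between ages in aTreg cells it was 3 with a pseudocount of 5, 3 with only the compared groups, 2 with edgeR, 3 with DESeq2, 6 at an unadjusted p and 5 without both libraries. In kTreg cells it was 5 with DESeq2 and 6 at an unadjusted p. An unadjusted p gave 1 for the interaction of kTreg against aTreg and 5 for that of kTreg against rTreg cells. With single libraries left out the numbers ran from 2 to 4 (aTreg against rTreg; kTreg against aTreg in old mice) and from 1 to 5 (age in aTreg cells). Directions turned in values that limma had not called. For kTreg against aTreg cells *Gzmk* became 0.089 with edgeR and 0.11 with DESeq2, *Gzmm* 0.064 with edgeR, 0.067 with DESeq2 and 0.12 without both libraries, and *Prf1* 0.17 with a pseudocount of 5, 0.75 with edgeR, 0.75 with DESeq2 and 0.79 without both libraries. In kTreg against rTreg cells *Prf1* became 0.020 without both, and *Gzmk* 0.054 with edgeR, 0.086 with DESeq2 and 0.16 without both. *Gzmk* in aTreg against rTreg cells became -0.012 with a pseudocount of 5, -0.035 with edgeR and -0.025 with DESeq2. Over single libraries left out, *Prf1* ranged from -0.59 to 0.98 and from -1.54 to 0.020 in these comparisons, *Gzmm* from -0.73 to 0.27 in the first, *Gzmk* from -0.74 to 0.16 in kTreg against rTreg cells, *Gzmb* from -0.047 to 0.39 in aTreg against rTreg cells, and *Gzma* from -0.14 to 0.62 between ages in rTreg cells. Depth limits *Gzmk* in young mice, with at most 35 reads in a library, and *Gzmm*, with at most 110.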

Other observations

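The 3 genes here come from the pathway lists and were picked after their values were seen. *Eomes*, the gene of a T-box factor that NK cells and memory CD8 T cells need, was 0 to 25.1 in young kTreg and 61.8 to 242 in old kTreg libraries, and rose with age there by 3.53 ± 0.76 (adjusted p = 0.021, limma). In aTreg cells its values ran the other way, from a mean of 249 in young to 50.8 in old mice (-2.44 ± 0.76, adjusted p = 0.096, limma). The change with age in the difference between kTreg and aTreg cells was 5.98 ± 1.08 (adjusted p = 0.036, limma). Young kTreg replicate 4, which was at 0, set much of the size, and without it the rise was 2.39 (adjusted p = 0.014, limma) and the interaction 4.83 (adjusted p = 0.0026, limma). The rise in kTreg cells did not pass without old kTreg replicate 2, 3 or 4 (adjusted p of 0.062 to 0.071), nor with only the compared groups (0.26). The interaction did not pass without young aTreg replicate 2, 3 or 4, old aTreg replicate 1 or 2 or old kTreg replicate 2, 3 or 4 (adjusted p of 0.062 to 0.091), nor with only the compared groups (0.076).

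In rTreg cells the chemokine gene *Ccl4* averaged 35.6 in young and 3072 in old mice and rose by 6.23 ± 0.55 (adjusted p = 4e-07, limma). Old rTreg replicate 3, the library with the highest macrophage marker sum, held 7643.5, and the other 3 averaged 1548. *Tbx21*, the gene of T-bet, a factor that drives type 1 effector genes, averaged 175 in young and 904 in old rTreg cells and rose by 2.38 ± 0.28 (adjusted p = 2e-05, limma). Both differed less with age in kTreg cells (interactions -5.03 ± 0.78, adjusted p = 0.0012, and -1.97 ± 0.40, adjusted p = 0.0078, limma). The macrophage and monocyte markers summed to 565 to 8060 in young and 10076 to 26208 in old rTreg libraries, and their part in these values was not tested.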
